A study of Homo sapiens with 3 samples.

Results

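The genes described are the chaperones of the endoplasmic reticulum (ER) and the genes of the unfolded protein response, measured in HEK293, a widely used line grown from human embryonic kidney. The members were 35 genes chosen by symbol, and 34 of them were found among the 12040 genes of the authors' deposited table. The 1 symbol not listed was VIMP. The table holds that gene, which RefSeq now calls SELENOS, under its synonym SELS, and the SELS row was not counted as a member.

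Poly(A) RNA was sequenced from 3 groups of cells with 1 library each: knockdown of DICER1, knockdown of DROSHA, and mock-transfected cells. DROSHA and DICER1 are the nuclear and the cytoplasmic enzyme that cut miRNA precursors. All groups shared 1 background, a T-Rex Flp-In derivative of HEK293 with a FLAG-tagged DICER1 transgene, and the sources used here do not say whether the transgene was induced. Every title also has the unexplained label 2.5d. The study asked what loss of DICER1 does to transcript levels, with the other 2 groups as controls.

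The authors' deposited table has no header. It gives 2 log2 ratios per gene, each of a library over the same shared library, after 1 had been added to every level. They are called comparison A (library A over the shared library, the first column of ratios) and comparison B (library B over the shared library, the second column). No column name ties a library to a group, and none was assigned by its values. DICER1 was at -1.32 in A and 0.58 in B in the authors' deposited table, where reads of the transgene may be included. DROSHA was at -0.11 in A and -1.65 in B in the authors' deposited table. The difference A minus B, which equals library A over library B and does not involve the shared library, was computed here.

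Each ratio rests on single libraries of unknown depth, so no replicate error can be given, nothing was tested, and the values hold for these libraries alone. In bulk RNA, fewer cells of a kind and less RNA per cell cannot be told apart. Of 5 genes listed as typical of HEK293, NEFL, INA and VIM were in the table, while PAX2 and NEFM were not listed. In the authors' deposited table INA was at 1.05 in A and -0.57 in B, NEFL at 0.65 in A and -0.33 in B, and VIM at 0.48 in A and -0.16 in B. Of 16 markers of plasma cells, hepatocytes and exocrine pancreas, types that secrete much protein, SDC1 alone was listed, at -0.51 in A and -0.43 in B in the authors' deposited table. Their part in the members' values was not tested.

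Proteins of the secretory pathway fold in the ER with the help of the Hsp70 protein HSPA5 (BiP), the Hsp90 protein HSP90B1 (GRP94), the lectin chaperones and the protein disulfide isomerases. When unfolded protein accumulates, the sensors ERN1 (IRE1), EIF2AK3 (PERK) and ATF6 signal to the nucleus. ERN1 splices XBP1 mRNA, ATF6 is cut to release a transcription factor, and EIF2AK3 slows translation while ATF4 is made. XBP1 and ATF6 raise genes for chaperones and for ER-associated degradation, which moves misfolded proteins to the cytosol for the proteasome. Their best known binding sequence is the ER stress response element (ERSE), in which a CCAAT box bound by NF-Y and a CCACG box bound by ATF6 or XBP1 lie a fixed distance apart.

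Promoters from RefSeq (build GRCh38.p14, 250 bases before to 50 bases after the start of each gene) were searched on both strands for these elements, a feature that the choice by symbol did not use. A promoter was matched for 29 of the 34 members, and for PDIA3, DERL1, DERL3, ERLIN1 and ERLIN2 none was used here. The ERSE, searched as CCAAT, any 9 bases and CCACG, was found in 7 members, HSPA5, HSP90B1, CALR, CANX, PDIA6, XBP1 and CRELD2, and HSP90B1 holds it on both strands. That is 24.1% of the 29 members, against 0.157% of the 9556 genes of the table with a promoter. The shorter ERSE-II, searched as ATTGG, any 1 base and CCACG, was found in HYOU1, SDF2L1 and HERPUD1. That is 10.3% of the 29 members, against 0.136% of the 9556 genes. Either element was present in 10 members (34.5%) and in 28 of the 9556 genes (0.293%). Many of these genes are textbook targets of the response and were listed for that reason, so the shares describe the list.

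Other binding sequences were found in fewer members. TGACGTGG or TGACGTGA, bound by ATF6 and XBP1 without NF-Y, was in the promoter of HYOU1, where it overlaps the ERSE-II that lies farther from the start, and in those of 191 of the 9556 genes. The composite site of ATF4 and C/EBP proteins, searched as TGATGNAAN, was in the promoter of HERPUD1 and in those of 244 of the 9556 genes. No other member had either sequence in the windows searched. A match describes letters in the window and does not show that a factor was bound in these cells.

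The promoters of 4 members with contrasting ratios are shown whole, 5′ to 3′ on the strand of the gene, with the boxes of the ERSE, or the whole ERSE-II, in capitals. HSPA5 lies at chr9:125241294-125241593 (minus strand), HSP90B1 at chr12:103930160-103930459 (plus strand), XBP1 at chr22:28800520-28800819 (minus strand) and HERPUD1 at chr16:56931892-56932191 (plus strand).
HSPA5: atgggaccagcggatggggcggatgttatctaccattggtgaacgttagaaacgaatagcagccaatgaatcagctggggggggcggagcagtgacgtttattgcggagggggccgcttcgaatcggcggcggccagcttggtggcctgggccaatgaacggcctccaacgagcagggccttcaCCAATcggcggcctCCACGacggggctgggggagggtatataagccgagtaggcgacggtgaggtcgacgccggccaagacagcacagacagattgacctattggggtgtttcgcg
HSP90B1: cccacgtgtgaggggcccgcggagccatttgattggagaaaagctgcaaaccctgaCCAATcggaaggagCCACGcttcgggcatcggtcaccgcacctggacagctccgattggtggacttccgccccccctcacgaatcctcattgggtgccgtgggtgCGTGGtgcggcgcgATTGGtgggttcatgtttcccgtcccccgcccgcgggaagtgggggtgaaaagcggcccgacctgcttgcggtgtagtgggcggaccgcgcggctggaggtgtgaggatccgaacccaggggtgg
XBP1: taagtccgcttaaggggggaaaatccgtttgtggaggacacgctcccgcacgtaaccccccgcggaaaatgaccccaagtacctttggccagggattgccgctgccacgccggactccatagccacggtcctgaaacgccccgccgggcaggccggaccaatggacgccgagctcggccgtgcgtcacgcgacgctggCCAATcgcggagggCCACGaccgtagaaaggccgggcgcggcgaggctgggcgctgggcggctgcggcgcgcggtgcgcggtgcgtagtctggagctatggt
HERPUD1: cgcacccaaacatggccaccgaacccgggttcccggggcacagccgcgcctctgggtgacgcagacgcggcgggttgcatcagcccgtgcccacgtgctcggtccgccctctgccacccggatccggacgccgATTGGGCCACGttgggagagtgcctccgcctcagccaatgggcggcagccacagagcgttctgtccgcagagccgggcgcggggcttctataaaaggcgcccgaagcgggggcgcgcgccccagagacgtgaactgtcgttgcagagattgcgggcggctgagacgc

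For the other 6 members the element is shown with 10 bases on either side, to compare the spacers between the boxes. An element on the opposite strand reads as CGTGG before ATTGG in the ERSE and as CGTGG, 1 base and CCAAT in the ERSE-II, which HYOU1 holds at 2 places. The stretches lie at chr19:12938374-12938412 (CALR, plus strand), chr5:179698768-179698806 (CANX, plus strand), chr2:10812843-10812881 (PDIA6, minus strand), chr22:49918544-49918582 (CRELD2, plus strand), chr11:119057370-119057400 and chr11:119057264-119057294 (HYOU1, minus strand) and chr22:21642104-21642134 (SDF2L1, plus strand).
CALR: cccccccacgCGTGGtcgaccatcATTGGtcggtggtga
CANX: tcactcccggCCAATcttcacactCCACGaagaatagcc
PDIA6: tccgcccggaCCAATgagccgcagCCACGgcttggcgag
CRELD2: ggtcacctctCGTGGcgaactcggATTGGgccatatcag
HYOU1, farther from the start: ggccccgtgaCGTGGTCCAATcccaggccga
HYOU1, nearer to the start: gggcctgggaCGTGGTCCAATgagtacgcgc
SDF2L1: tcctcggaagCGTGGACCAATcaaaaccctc

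**Figure D1:**
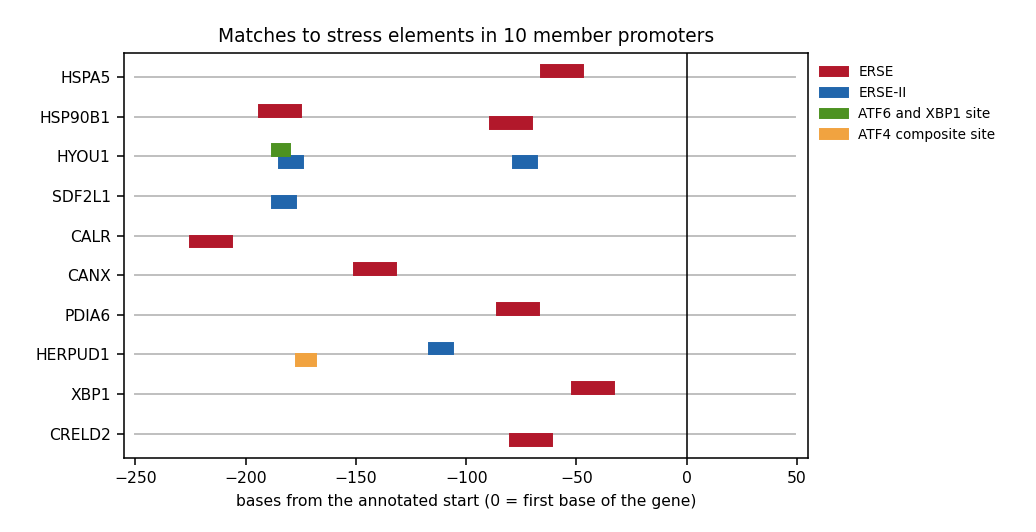
Matches to the ERSE, the ERSE-II, the site of ATF6 and XBP1 and the composite site of ATF4 in the promoters of 10 members, as bases from the annotated start; boxes above a line are on the strand of the gene and boxes below it on the opposite strand. For CANX, PDIA6 and XBP1, which have several annotated starts, the first window listed that holds an element is drawn. The ERSE of XBP1 spans bases -52 to -34 and that of HSPA5 bases -66 to -48, while the element of CALR begins at -225.

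Most of the 34 genes differed little between the 3 libraries, as did most genes of the table. Rose and fell are used for a log2 ratio of at least 1 in size, a 2-fold difference. In comparison A, ERLIN2 alone fell (1 of 34, where 0.166% of all genes fell) and no member rose (0.174% of all genes rose). In comparison B no member rose or fell, where 0.0831% of all genes rose and 0.748% fell. In the difference DERL3 alone rose (1.31% of all genes did) and ERLIN2 alone fell (0.349% of all genes did).

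A lower limit of 0.5 in size added few members. In comparison A, DERL3 alone lay at 0.5 or more, as did 1.46% of all genes, and ERLIN2 alone at -0.5 or less, as did 2.04%. In comparison B, DNAJB9 alone lay at 0.5 or more, as did 2.33% of all genes, and SDF2L1 alone at -0.5 or less, as did 5.59%. In the difference DERL3 and XBP1 lay on the higher side, as did 8.6% of all genes, and ERLIN2 and ERO1L on the lower side, as did 4.82%. Of the members, 5.88% lay past 0.5 in either direction in A, 5.88% in B and 11.8% in the difference. Of all genes, 3.50% did so in A, 7.92% in B and 13.4% in the difference.

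The median log2 ratio of the members was -0.028 in A, against 0.030 for all genes, and 0.10 in B, against 0.0063 for all genes. The median of the difference was -0.097 for the members and 0.025 for all genes. Above 0 in A were 14 of the 34 members (41.2%), against 56.5% of all genes. In B, 19 members (55.9%) were above 0, against 51.1% of all genes. Over the 3 libraries, the log2 range from the lowest to the highest had a median of 0.27 for the members and 0.27 for all genes. SEC61B was the most even member with a range of 0.07, followed by SYVN1 at 0.08, CALR at 0.09 and P4HB at 0.10. ERLIN2 with 1.48 and DERL3 with 1.19 were the least even. Library A was the lowest of the 3 for 15 of the 34 members, and for 29.3% of all genes. Library B was the highest for 17 members, and for 38.2% of all genes.

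**Figure D2:**
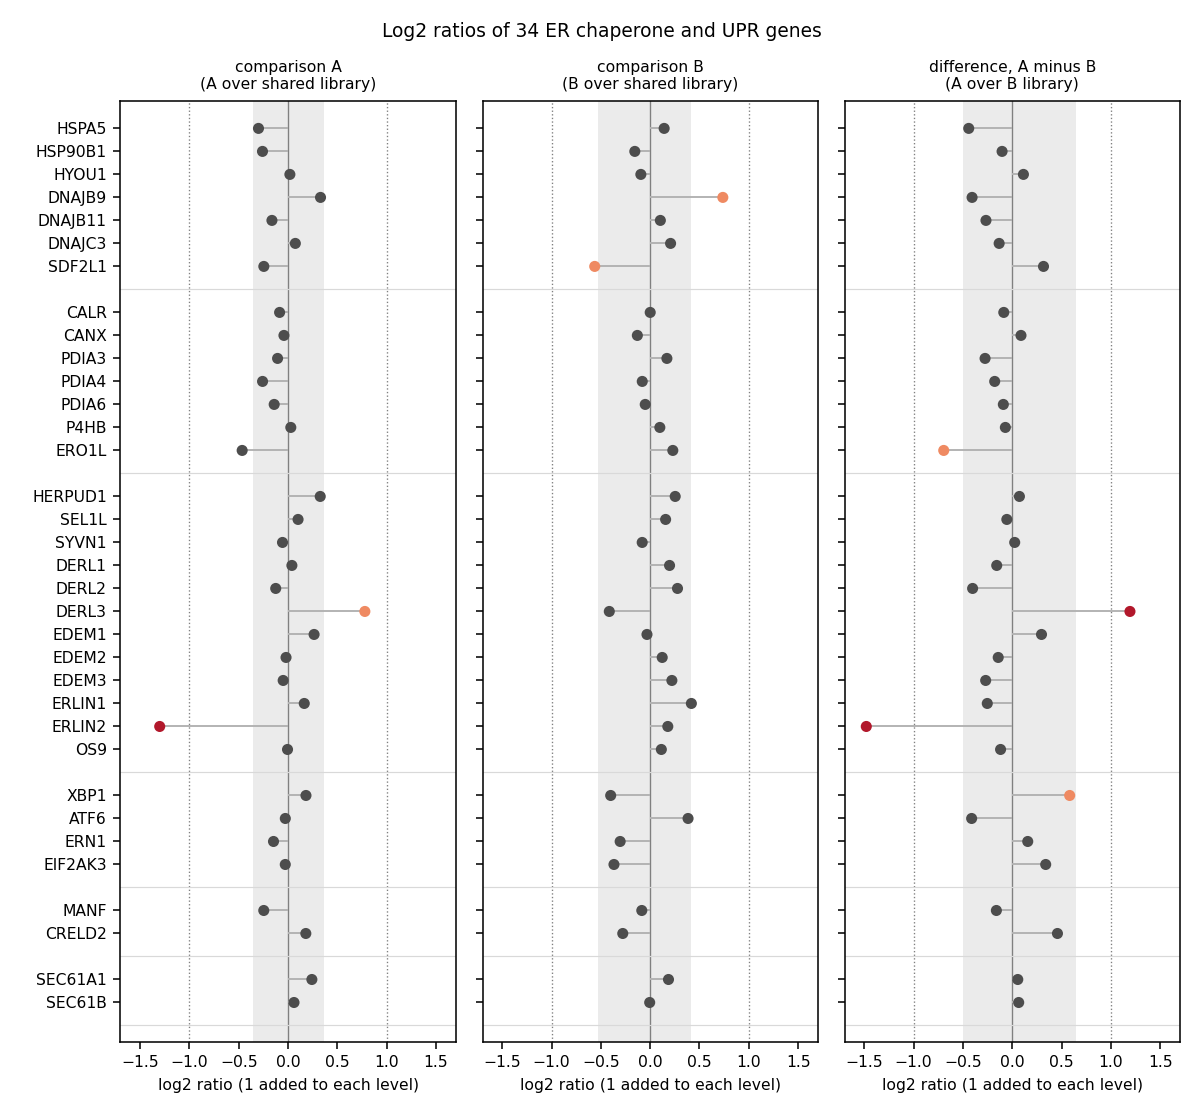
Log2 ratios of the 34 members in comparison A, comparison B and the difference A minus B, after 1 had been added to each level. The grey band runs from the 5th to the 95th percentile of all 12040 genes, dotted lines mark 1 in size, red points lie past 1 and orange points past 0.5. ERLIN2 is at -1.30 in A, and DNAJB9 at 0.74 and SDF2L1 at -0.56 are the ends of B.

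The Hsp70 and Hsp90 machinery of the ER lumen was split in its values. HSPA5, the Hsp70 chaperone that also holds the sensors inactive, was at -0.30 in A and 0.14 in B in the authors' deposited table. It was thus lowest in library A and highest in library B, a difference of -0.44. HSP90B1, the Hsp90 chaperone, was at -0.26 in A and -0.16 in B in the authors' deposited table. The shared library was the highest of the 3 for this gene, and the difference was -0.10.

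The cochaperones of HSPA5 held both ends of comparison B. DNAJB9 (ERdj4), a known target of XBP1, was at 0.33 in A and 0.74 in B in the authors' deposited table. Both libraries were higher than the shared one, and the value in B ranked 42 from the highest of 12040 genes. DNAJB9 shares 183 exon bases with THAP5 on the opposite strand, and no source used here says whether counting used strand. In GENCODE release 29, 16 members share exon bases with a gene on the opposite strand, ERLIN2, ERO1L and EIF2AK3 among them, so their values carry the same uncertainty. THAP5 was at -0.35 in A and -0.17 in B in the authors' deposited table. SDF2L1, which works with DNAJB11 on HSPA5 clients, was at -0.25 in A and -0.56 in B in the authors' deposited table, so that both libraries were lower than the shared one.

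The remaining 3 genes of this group lay within 0.25 of 0 in both comparisons. In the authors' deposited table DNAJB11 (ERdj3) was at -0.16 in A and 0.10 in B. DNAJC3 (p58IPK), which also restrains EIF2AK3, was at 0.07 in A and 0.21 in B in the same authors' deposited table. HYOU1 (GRP170), a large Hsp70 relative that exchanges the nucleotide of HSPA5, was at 0.02 in A and -0.09 in B in the authors' deposited table. The median of the 7 genes was -0.16 in A and 0.10 in B. Above 0 were 3 of the 7 in A and 4 in B, against 56.5% and 51.1% of all genes.

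The lectin chaperones and disulfide enzymes were even in comparison B, where all 7 lay within 0.25 of 0, as 66.8% of all genes did. In A, 6 of the 7 were below 0, as were 43.4% of all genes, and the median was -0.11. ERO1L, the oxidase that recharges the disulfide isomerases, was at -0.47 in A and 0.23 in B in the authors' deposited table. It was lowest in library A and highest in library B. The difference of -0.70 ranked 195 from the lowest of 12040 genes.

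Of the disulfide isomerases, PDIA4 (ERp72) was at -0.26 in A and -0.08 in B in the authors' deposited table. PDIA6 was at -0.14 in A and -0.05 in B in the authors' deposited table. For PDIA3, which partners the lectin chaperones, the authors' deposited table gave -0.11 in A and 0.17 in B. P4HB, the founding disulfide isomerase, was at 0.03 in A and 0.10 in B in the authors' deposited table. The lectin chaperones hold glycoproteins while they fold, and both differed little. CALR (calreticulin) was at -0.09 in A and 0.00046 in B, and CANX (calnexin) at -0.04 in A and -0.13 in B, in the authors' deposited table.

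ER-associated degradation held both genes that differed by 2-fold or more. ERLIN2, a membrane protein that brings IP3 receptors to degradation, was at -1.30 in A and 0.18 in B in the authors' deposited table. It was low in library A, 2.46-fold under the shared library and 2.79-fold under library B after 1 had been added to each level. The value in A ranked 5 from the lowest of 12040 genes, and the difference of -1.48 ranked 9 from the lowest. ERLIN1, its partner in the same complex, was at 0.16 in A and 0.42 in B in the authors' deposited table. ERLIN1 was thus lowest in the shared library, and its difference was -0.25.

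DERL3, a derlin of the degradation channel, lay on the other side. It was at 0.78 in A and -0.41 in B in the authors' deposited table, highest in library A and lowest in library B. The difference of 1.19 is a 2.29-fold higher level in library A than in library B. DERL3 ranked 47 from the highest in A and 87 from the highest in the difference. It shares 2911 exon bases with SMARCB1 on the opposite strand, so its value is uncertain if counting ignored strand. SMARCB1 was at 0.04 in A and -0.18 in B in the authors' deposited table. The other derlins had smaller values, DERL1 with 0.04 in A and 0.20 in B and DERL2 with -0.12 in A and 0.28 in B in the authors' deposited table.

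HERPUD1, which gathers the degradation complex at the membrane, was at 0.33 in A and 0.25 in B in the authors' deposited table. Both libraries were higher than the shared one, and the difference was 0.07. The mannosidase-like EDEM proteins mark glycoproteins for disposal, and their genes differed from each other. EDEM1 was at 0.26 in A and -0.03 in B, EDEM2 at -0.02 in A and 0.12 in B, and EDEM3 at -0.05 in A and 0.22 in B, in the authors' deposited table.

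The core of the ligase complex was even. The ubiquitin ligase SYVN1 (HRD1) was at -0.06 in A and -0.08 in B in the authors' deposited table. Its scaffold SEL1L was at 0.10 in A and 0.16 in B in the authors' deposited table. The lectin OS9, which delivers glycoproteins to it, was at -0.0053 in A and 0.11 in B in the authors' deposited table. SELS, the row that holds the missing member, a channel partner of the derlins, was at -0.03 in A and 0.13 in B in the authors' deposited table. Over the 12 degradation genes the median was 0.02 in A and 0.17 in B. Above 0 were 6 of the 12 in A and 9 in B, against 56.5% and 51.1% of all genes.

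The 3′ untranslated regions (UTRs) of members were searched for 4 sequences of 7 bases that an earlier pass over these values had picked from these values. The sites therefore give no independent evidence, and they are shown because 3 of the 4 members that carry the first pair were the 3 lowest members of comparison A. The first pair, CAATCTA and AATCTAA, was carried by ERLIN2, ERO1L, HSPA5 and ERN1, or 11.8% of the 34 members against 13.7% of 11112 genes. In A these 4 members had a median of -0.38, against -0.013 for the other 30. Among all genes carriers had a median of -0.09, against 0.05 for genes without. The sites of HSPA5 (chr9:125235976-125236002, minus strand), ERO1L (chr14:52642443-52642470, minus strand) and ERN1 (chr17:64040756-64040782, minus strand) come from GENCODE release 29 on GRCh38, with the matched bases in capitals.
HSPA5: cttttgcattAATCTAAgaaaagggga
ERO1L: tttcaagttcCAATCTAAagttcttttt
ERN1: agctgtgaagCAATCTAgtggctaagt

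The second pair, GTGACTT and TGACTTA, had been picked on comparison B. It was carried by 8 members, ATF6, DERL2, DNAJB9, EIF2AK3, ERLIN1, ERLIN2, ERN1 and ERO1L, or 23.5% of the 34 against 19.7% of the 11112 genes. In B these 8 had a median of 0.25, against -0.0022 for the other 26 members. Among all genes the order was the other way, with -0.06 for carriers and 0.02 for genes without. DNAJB9, the highest member of B, carried GTGACTT.

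**Figure D3:**
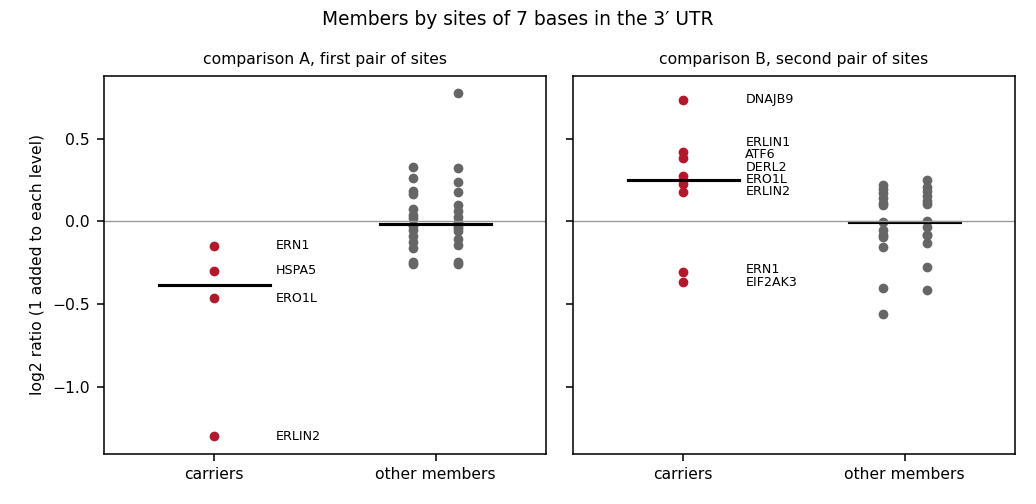
Log2 ratios of members whose 3′ UTR carries the first pair of sites (left, comparison A) or the second pair (right, comparison B), each beside the other members; points are genes and black bars medians. On the left the carriers ERLIN2, ERO1L and HSPA5 lie lowest, with a median of -0.38 for the 4 carriers. On the right the 8 carriers have a median of 0.25. Both pairs had been picked from these same values, so neither contrast is independent evidence.

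Among the sensors and XBP1, all 4 genes lay within 0.25 of 0 in A, as 78.4% of all genes did. In B all 4 lay outside that band, which held 66.8% of all genes. XBP1, whose mRNA is the substrate of ERN1, was at 0.18 in A and -0.40 in B in the authors' deposited table. It was highest in library A and lowest in library B, a difference of 0.58. Ratios per gene do not separate spliced from unspliced XBP1 mRNA. ATF6, the sensor that is cut to a transcription factor, was at -0.03 in A and 0.38 in B in the authors' deposited table, so it was high in library B alone.

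The kinases among the sensors were lowest in library B. EIF2AK3, the kinase of the ATF4 branch, was at -0.03 in A and -0.37 in B in the authors' deposited table. ERN1, a kinase and nuclease found from yeast to human, was at -0.15 in A and -0.30 in B in the authors' deposited table. The 1 added to each level shrinks ratios of low genes. Levels were not analysed for any member, DERL3 and ERLIN2 included, so which ratios were shrunk is not known here.

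The genes of the secreted stress proteins differed from each other, and those of the translocon were even in the difference. MANF, a neurotrophic factor released on ER stress, was at -0.25 in A and -0.08 in B in the authors' deposited table. CRELD2, another secreted target of ATF6, was at 0.18 in A and -0.28 in B in the authors' deposited table. CRELD2 was highest in library A and lowest in library B, as XBP1 was, with a difference of 0.46. The pore subunit SEC61A1 was at 0.24 in A and 0.19 in B, and the small subunit SEC61B at 0.06 in A and -0.0048 in B, in the authors' deposited table.

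The 10 members with an ERSE or ERSE-II did not share a direction in either comparison. In A, 4 of them were above 0 and 6 below, from HSPA5 at -0.30 to HERPUD1 at 0.33 in the authors' deposited table, with a median of -0.06. In B, 3 were above 0 and 7 below, from SDF2L1 at -0.56 to HERPUD1 at 0.25 in the authors' deposited table, with a median of -0.11. The 19 members with a promoter and neither element had medians of -0.028 in A and 0.11 in B. Of these 19, 12 were below 0 in A and 7 in B. Of all genes, 43.4% were below 0 in A and 48.9% in B.

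Other genes of the pathway were taken from 6 lists of related function. The 4 lists of ER genes, with 107 genes in the table, had medians of -0.04 in A and 0.04 in B. Among the 107, none rose or fell in A, where 0.174% of all genes rose and 0.166% fell. In B none rose and UBE2J1 alone fell (0.935% of the 107), where 0.0831% of all genes rose and 0.748% fell. In the difference none rose (1.31% of all genes did) and RNF5 alone fell, at -1.06 (0.349% of all genes did). UBE2J1, a ubiquitin-conjugating enzyme of the ER membrane, was at -0.53 in A and -1.29 in B in the authors' deposited table.

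Of 33 other folding enzymes and cochaperones none rose or fell, as 0.341% of all genes did in A and 0.831% in B. In the authors' deposited table their values in A ran from ERO1LB, the other ER oxidase, at -0.44 to ERP29 at 0.26. In B they ran from CNPY3 at -0.55 to FKBP14, a prolyl isomerase, at 0.59 in the authors' deposited table. Of 27 other degradation genes, UBE2G2, the conjugating enzyme of several ER ligases, was lowest in A at -0.69 and MAN1B1 highest at 0.33 in the authors' deposited table. In B the lowest was UBE2J1 and the highest RNF5, a ubiquitin ligase, at 0.66 in the authors' deposited table.

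Of 29 other translocation and glycosylation genes, 23 were below 0 in A (79.3%, against 43.4% of all genes), with a median of -0.07. They ran in A from SSR1, of the translocon-associated complex, at -0.47 to SRPR, a receptor for the signal recognition particle, at 0.24 in the authors' deposited table. In B they ran from SPCS2 at -0.31 to SRP54 at 0.45 in the authors' deposited table, with a median of 0.08. The 18 other genes of the sensor pathways ran from PPP1R15B at -0.50 to EIF2AK4 at 0.29 in A, and from TRPT1 at -0.50 to NFE2L2 at 0.26 in B, in the authors' deposited table.

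Genes of the ATF4 branch had larger values than the ER lists. All 14 were above 0 in A, as were 56.5% of all genes. Their median in A was 0.56, from ATF3 at 0.12 to NUPR1 at 1.21 in the authors' deposited table. NUPR1 and SESN2, at 1.14 in the authors' deposited table, rose, as did 0.174% of all genes. In B, 11 of the 14 were below 0, as were 48.9% of all genes, and the median was -0.22. Their values in B ran from NUPR1 at -1.05 to VLDLR at 0.52 in the authors' deposited table. NUPR1 fell in B, as did 0.748% of all genes. The medians of the 34 members were -0.028 in A and 0.10 in B. That stress genes of this branch lie apart was known from earlier results on these values, so their place is a description. The 6 regulators of the HSPA5 promoter ran from NFYB at -0.16 to NFYC at 0.26 in A, and from NFYA at -0.31 to GTF2I at 0.25 in B, in the authors' deposited table.

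**Figure D4:**
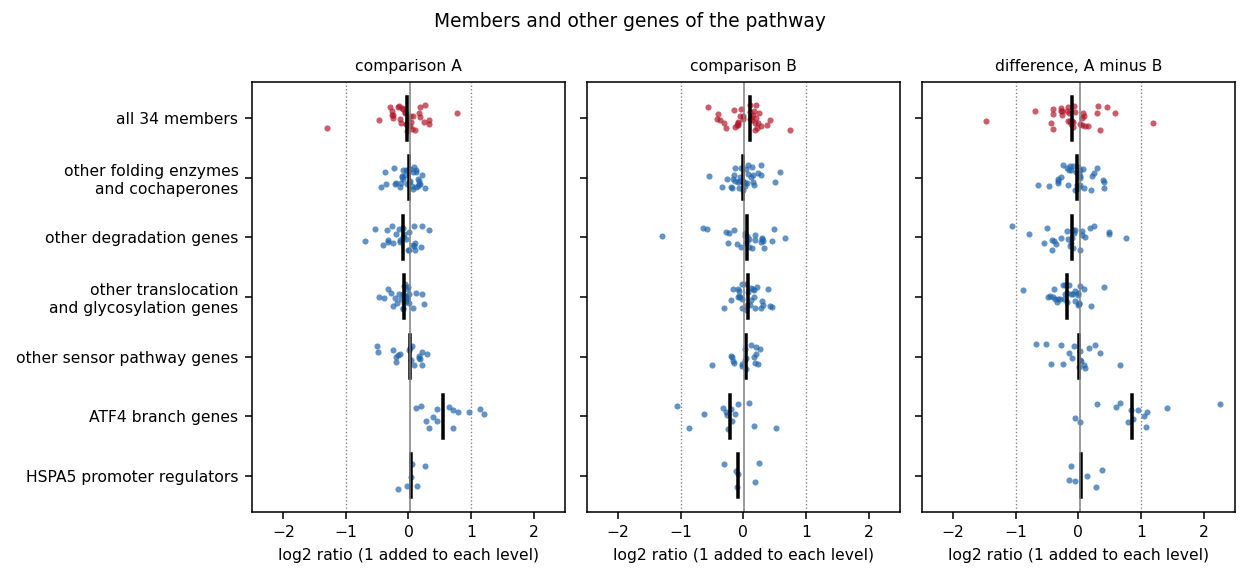
Log2 ratios, after 1 had been added to each level, of the 34 members in red and of 6 lists of other pathway genes in blue, in comparison A, comparison B and the difference A minus B. Each point is a gene, black bars are medians of a list, the grey line is the median of all genes and dotted lines mark 1 in size. The bars of the ER lists lie near the line in both comparisons, and that of the ATF4 branch lies at 0.56 in A and at -0.22 in B.

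Both comparisons used the shared library, so a level that was high or low there entered both ratios of a gene. Below 0 in both were 9 members, HSP90B1, SDF2L1, CANX, PDIA4, PDIA6, SYVN1, ERN1, EIF2AK3 and MANF, for which the shared library was the highest. Above 0 in both were 8, DNAJB9, DNAJC3, P4HB, HERPUD1, SEL1L, DERL1, ERLIN1 and SEC61A1, for which it was the lowest. Among all genes the shared library was the highest for 22.6% and the lowest for 30.2%. In the difference, where the shared library has no part, the 9 ran from PDIA4 at -0.18 to EIF2AK3 at 0.34, with SDF2L1 at 0.32. The 8 ran from DNAJB9 at -0.41 to HERPUD1 at 0.07. The value of SDF2L1 was 0.016 after re-centring on genes of like GC content, a setting chosen after the data were seen.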

How the data were processed

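Poly(A) RNA from 3 libraries of HEK293 cells was sequenced after TRIzol extraction and TruSeq library preparation, per the labels' protocols. Programs listed by the submitters' processing notes are CASAVA 1.8.2, TopHat2 2.06, Cuffdiff 2.1.1, Cufflinks and SAMtools, with build hg19 and no role for each. The authors deposited 1 table of 12040 genes with log2 fold changes. Its 3 columns of per-sample levels match no label and were not analysed. They served only to test that the deposited log2 values are ratios to the same column with 1 added (largest deviation 4.97e-12) and that this denominator was above 1 in every gene.

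Members, lists and motifs were chosen with earlier results of these data known. Every member found was described, and each other list gave its highest and lowest gene. SELS, SMARCB1 and THAP5 were named because they are, or share exons with, a member. UTRs of at least 50 bases came from the GENCODE 29 transcript with the longest coding sequence, for 11112 genes. Scripts (Python 3.11.15, pandas 2.3.3) were tested on simulated data only for the motif search, with planted motifs, and for the subtraction that gives the difference. The latter holds by arithmetic alone. Alternatives were a limit of 0.5, the mean, re-centring on all genes or by GC content, and removal of carriers of the sites.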

Additional observations from a re-analysis of the deposited data

How the results depend on the processing

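No paired analysis was possible because each group has 1 library, and no replicate could be left out. The planned addition of 0.1 or nothing to the levels and the minimum mean level were not run, since the level columns match no label. After re-centring on all genes or on genes of like GC content, the counts past 1 in size stayed at 1 in comparison A, 0 in B and 2 in the difference. With 0.5 as the limit they were 2 in A, 2 in B and 4 in the difference. Among the 25 members with none of the 4 sites in the 3′ UTR, which leaves out ERLIN2 by construction, they were 0 in A and 1 in the difference. The median in B was then -0.0048, against 0.10 over all 34. The other medians moved by less than 0.1 under the settings run, and kept their sign. Of 51 recomputed values of ERLIN2, DERL3, ERO1L, DNAJB9, SDF2L1, XBP1 and HSPA5, 0 changed side of the 2-fold limit. Site removal leaves the value of a kept gene as it was, so for DERL3, SDF2L1 and XBP1 it could not change the side. Only ERLIN2 in A and in the difference, and DERL3 in the difference, were past the limit at the start. By GC content the difference of SDF2L1 was 0.016, against 0.32, and SDF2L1 in A was at -0.41, against -0.25. SDF2L1 in B was then at -0.43, against -0.56, and no longer reached the limit of 0.5 in size. In B, ERLIN2 was then at 0.09, against 0.18, and ERO1L at 0.13, against 0.23. In the difference ERO1L was at -0.52, against -0.70, and DNAJB9 at -0.27, against -0.41. DERL3 was at 1.02 there, against 1.19, and ERLIN2 at -1.38, against -1.48. GC content and site removal were chosen after the data were seen. The 4 sites had been picked from these same values, so their removal selects members by those values. Unknown depth limits all values.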

Other observations

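Besides the members, 18 genes of the table had an ERSE or ERSE-II in a promoter, with medians of 0.05 in comparison A and -0.0018 in B. Several act in the ER, and they did not share a direction. ERO1LB, the other ER oxidase, was at -0.44 in A and 0.03 in B in the authors' deposited table, a difference of -0.47. SERP1, which guards proteins during translocation, was at 0.06 in A and -0.27 in B in the authors' deposited table. FICD, which modifies HSPA5, was at -0.05 in A and -0.28 in B in the authors' deposited table. ALG12, a mannosyltransferase of glycan assembly, stands head to head with CRELD2, and the same element was read on the other strand. ALG12 was at 0.35 in A and -0.43 in B in the authors' deposited table, a difference of 0.78, and CRELD2 had a difference of 0.46. EIF2A, which stands head to head with SERP1, was at -0.38 in A and 0.15 in B in the authors' deposited table.

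Of these 18 genes, SHCBP1 was highest in B at 0.73 and SETD3 lowest in A at -0.46 in the authors' deposited table. They were chosen after their promoters had been searched, and no test was made.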
